A study of Homo sapiens with 4 samples.

Results

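The anoctamins (also named TMEM16 proteins) are a family of 10 human membrane proteins, ANO1 to ANO10, and all 10 were found by name among the 2864 genes of the table used here. RNA was sequenced from A375 cells, a human melanoma line with the BRAF-V600E mutation, whose growth depends on the kinase that vemurafenib inhibits. The 4 libraries were untreated parental cells (A375P), a strain made resistant by stepwise escalation of vemurafenib and kept in the drug (A375R), and cells given for 48 h either the solvent DMSO at 1‰ (A375+DMSO) or vemurafenib at 2 μM (A375+VEM). All carry the same genotype and batch entries in the labels, and A375R is a single laboratory strain whose clonality is not given in the sources used here. Each condition had 1 library, so no difference below has a replicate check and none was tested. The copy of the deposited table used here is partial: it runs in alphabetical order and breaks off, in an incomplete row, at names starting with CAC.

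Anoctamins share a fold in which a groove along each subunit carries either ions or lipids, and calcium binding opens it. ANO1 and ANO2 are calcium-activated chloride channels. ANO6 is a calcium-activated scramblase, which lets phospholipids such as phosphatidylserine pass between the leaflets of the plasma membrane, and several other members have been reported to scramble lipids or to work inside the cell, at the endoplasmic reticulum. ANO1 lies in a region of chromosome 11 that is often amplified in carcinomas.

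Each level is given as TPM, which the authors made from reads per base of gene by bringing each library to the same total, so that genes of different length can be compared. The genes of the table held 2054277 reads in A375P and 1963230 in A375R, and 1891215 with DMSO and 1932550 with VEM, a part of the depth. For the members 1 read was worth between 0.016 and 0.044 TPM, depending on gene length and library. Ratios are ratios of TPM, with exact (Clopper-Pearson) 95% intervals from the reads of both libraries, which cover counting error only. Log2 ratios are on the scale of (TPM + 0.1) and understate the change of low genes. A gene was called higher or lower when its ratio of (TPM + 0.1) passed 1.5-fold, provided that either library of the comparison reached a TPM of 1.

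ANO6, ANO1, ANO8 and ANO10 made up nearly all anoctamin RNA in A375 cells, from 92.7% of the summed TPM in A375+VEM to 96.9% in A375R. The TPM of all 10 members summed to 98.5 in A375P and 158 in A375R, and to 119 with DMSO and 114 with VEM. Of the 10, 5 members had a TPM of at least 1 in every library (ANO1, ANO3, ANO6, ANO8 and ANO10), 4 in some libraries (ANO4, ANO5, ANO7 and ANO9) and ANO2 in none. In bulk RNA, fewer cells with a transcript and less of it per cell cannot be told apart.

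**Figure D1:**
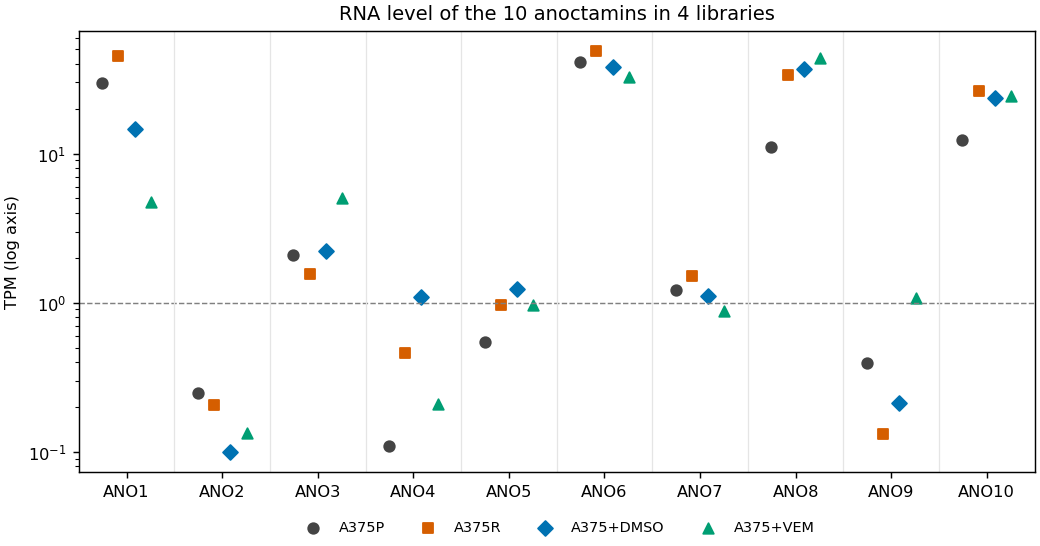
RNA level (TPM, log axis) of each anoctamin, 1 point per library, with a dashed line at a TPM of 1. ANO8 and ANO10 are lowest in A375P with the other 3 libraries close together, ANO1 runs from 44.8 in A375R down to 4.72 in A375+VEM, and ANO6 stays between 32.6 and 48.5.

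The make-up of the family differed between libraries although ANO6 changed little. In A375P the order was ANO6 at 41.4% of the family's TPM, ANO1 at 30.2%, ANO10 at 12.6% and ANO8 at 11.2%, and the last pair did not differ beyond counting error (ratio of TPM 1.13, 95% interval 0.975 to 1.31). In A375R ANO6 held 30.7%, ANO1 28.3%, ANO8 21.3% and ANO10 16.6%. In A375+DMSO ANO6 and ANO8 stood level at 32.1% and 30.8% (ratio 1.04, 95% interval 0.970 to 1.12), followed by ANO10 at 19.8% and ANO1 at 12.3%. In A375+VEM ANO8 was first at 38.3%, ahead of ANO6 at 28.7% (ratio 1.33, 95% interval 1.24 to 1.43) and ANO10 at 21.6%. There ANO1 was down to 4.16%, next to ANO3 at 4.41%, from which it did not differ beyond counting error (ratio of ANO3 to ANO1 1.06, 95% interval 0.875 to 1.28). Below the leading members, the order of ANO5, ANO9, ANO2 and ANO4 in A375P rests on 31, 10, 8 and 4 reads, and no neighbours among them differed beyond counting error.

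**Figure D2:**
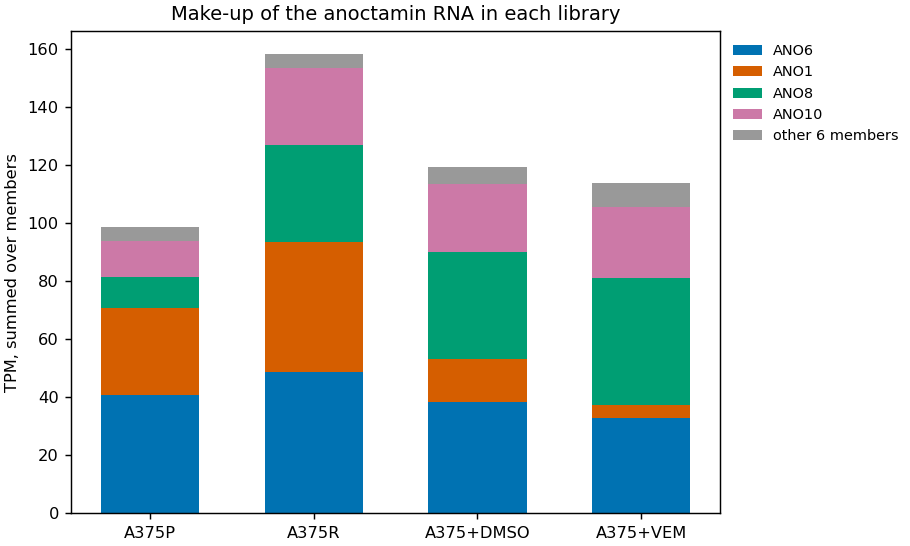
TPM summed over the 10 anoctamins in each library, with each bar divided into ANO6, ANO1, ANO8, ANO10 and the other 6 members. The total is 98.5 in A375P and 158 in A375R, and the ANO1 band narrows from 44.8 TPM in A375R to 4.72 in A375+VEM.

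ANO1, the chloride channel, was the member with the widest range among those above a TPM of 1 in every library. Coordinates are those of the authors' table, and hg19 is the build named in the submitters' processing notes. ANO1 lies on the plus strand of chromosome 11 (69924408 to 70035651). Its reads numbered 1292 in A375P and 1756 in A375R, then 594 with DMSO and 190 with VEM, or a TPM of 29.7, 44.8, 14.7 and 4.72. The resistant strain was thus the highest library and the acutely treated cells the lowest, with the libraries without vemurafenib between them and apart from each other. In A375+VEM the level was 0.322 of that in A375+DMSO (95% interval 0.272 to 0.380) and 0.159 of that in A375P (95% interval 0.136 to 0.185). Among the 1784 genes compared with A375+DMSO as the control, 105 had a lower log2 ratio than ANO1, which was at -1.61. In A375R the level was 1.505 times that in A375P (95% interval 1.40 to 1.62), a value at the threshold that was no longer called with a pseudocount of 1 TPM or after rescaling the libraries. Against A375+DMSO it was 3.05 times (95% interval 2.78 to 3.36), and 23 of 1702 genes had a higher log2 ratio. So A375R was above, and A375+VEM below, either library without the drug, and A375+DMSO itself was at 0.493 of A375P (95% interval 0.446 to 0.543).

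ANO2, the other chloride channel, is known from olfactory neurons and photoreceptors. It lies on the minus strand of chromosome 12 (5671817 to 6055398). Its reads numbered 8 in A375P and 6 in A375R, then 3 with DMSO and 4 with VEM, a TPM of at most 0.247. No difference between libraries was detectable for ANO2 at this depth.

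The antisense lncRNA ANO1-AS2, on the minus strand of chromosome 11 (69918540 to 69921454), lies head to head with ANO1 in the table's annotation, with 2953 bases between them. RefSeq starts ANO1 92395 bases before the GENCODE start, so the head-to-head order holds for the table's annotation only. By the RefSeq start, the stretch that holds ANO1-AS2 would lie within ANO1. The reads of ANO1-AS2 numbered 38 in A375P and 97 in A375R, then 39 with DMSO and 42 with VEM, a TPM of 5.51, 15.6, 6.07 and 6.58. A375R alone was high. The level of ANO1-AS2 in A375R was 2.83 times that in A375P (95% interval 1.92 to 4.23) and 2.57 times that with DMSO (95% interval 1.75 to 3.83). From A375+DMSO to A375+VEM, where ANO1 was lower, the ratio of ANO1-AS2 was 1.08 (95% interval 0.684 to 1.72).

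ANO6, the scramblase whose loss causes the bleeding disorder Scott syndrome, was the most even member. It lies on the plus strand of chromosome 12 (45609770 to 45834187) and had 2499 reads in A375P and 2684 in A375R, then 2192 with DMSO and 1850 with VEM. The TPM was 40.8, 48.5, 38.3 and 32.6, so the highest library was 1.49 times the lowest. None of its ratios passed 1.5-fold. With so many reads the intervals were narrow, at 1.13 to 1.26 around a ratio of 1.19 for A375R against A375P and at 0.798 to 0.905 around 0.850 for A375+VEM against A375+DMSO. They leave out 1, but cover counting error only, and the libraries without vemurafenib differed by a ratio of 0.940 (95% interval 0.887 to 0.996).

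ANO3, mutated in a form of inherited dystonia, was the member with most reads among those called higher with VEM than with DMSO. It lies on the plus strand of chromosome 11 (26210670 to 26684836). Its reads numbered 116 in A375P and 78 in A375R, then 115 with DMSO and 256 with VEM, or a TPM of 2.10, 1.56, 2.23 and 5.00. The libraries without the drug were level, at a ratio of 1.06 (95% interval 0.814 to 1.39), and A375+VEM stood above them. The ANO3 level with VEM was 2.24 times that with DMSO (95% interval 1.79 to 2.82) and 2.38 times that in A375P (95% interval 1.91 to 2.99). In A375R it was at 0.744 of A375P (95% interval 0.551 to 1.00), which was not called. ANO9, on the minus strand of chromosome 11 (417930 to 442011), was also called higher in A375+VEM, from 10 reads in A375P, 3 in A375R and 5 in A375+DMSO to 25 in A375+VEM. Its ratio to A375+DMSO was 5.04 with an interval from 1.89 to 16.8, and its TPM in A375+VEM was 1.07, just above the filter. After TMM scaling of the counts ANO9 did not pass the filter and was not called.

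The starts of ANO3 are shown because this gene was called higher in A375+VEM and RefSeq gives it starts of unlike sequence. The sequences are RefSeq promoters of GRCh38.p14, each from 250 bases before a transcript start to 50 after it, and the RefSeq table matched 8 of the 10 members with 13 promoters. ANO3 is read at chr11:26188558-26188857 (start 1), chr11:26331880-26332179 (start 2) and chr11:26473705-26474004 (start 3), all on the plus strand. Capitals mark matches, on either strand, to the E-box CACGTG, the M-box core CATGTG bound by MITF, the AP-1 site TGANTCA, the TEAD site GGAATG, the GC box GGGCGG or the TATA box TATAAA, none of which holds another.
ANO3 start 1: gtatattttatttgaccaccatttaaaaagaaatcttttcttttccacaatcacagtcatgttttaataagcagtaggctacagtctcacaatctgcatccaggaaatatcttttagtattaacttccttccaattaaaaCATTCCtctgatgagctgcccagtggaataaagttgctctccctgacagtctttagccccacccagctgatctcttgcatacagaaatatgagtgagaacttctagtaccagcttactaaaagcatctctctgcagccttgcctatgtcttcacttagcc
ANO3 start 2: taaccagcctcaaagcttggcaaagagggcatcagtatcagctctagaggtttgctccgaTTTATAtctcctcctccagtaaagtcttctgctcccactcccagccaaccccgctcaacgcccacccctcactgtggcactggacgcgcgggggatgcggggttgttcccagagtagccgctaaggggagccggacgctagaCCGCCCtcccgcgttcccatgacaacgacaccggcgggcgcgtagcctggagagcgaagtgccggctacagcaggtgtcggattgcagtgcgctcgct
ANO3 start 3: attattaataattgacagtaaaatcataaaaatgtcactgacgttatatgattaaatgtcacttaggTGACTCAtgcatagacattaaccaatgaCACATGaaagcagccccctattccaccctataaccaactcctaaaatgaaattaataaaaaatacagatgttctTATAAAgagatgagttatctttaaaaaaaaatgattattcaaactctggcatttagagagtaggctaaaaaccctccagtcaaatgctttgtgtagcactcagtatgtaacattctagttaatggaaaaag
ANO3 start 1 was 39.0% G and C, with no CpG dinucleotide and a single TEAD match, while start 2 was 61.7% G and C, with 23 CpG, 1 GC box and 1 TATA box. Start 3 was 31.0% G and C, with 1 CpG and 1 match each to the M-box core, the AP-1 site and the TATA box. The median over all 35116 promoters was 58.7% G and C, and 44.95% of them held a GC box, 14.03% a TEAD match and 11.53% a TATA box. CACGTG was in 7.26% of all promoters, CATGTG in 11.1% and the AP-1 site in 7.71%. A match is a description of letters, and the table has 1 value per gene, so the start that the cells used was not measured. The span of ANO3 in the table, 474167 bases, is close to that in RefSeq, 474482 bases, but not to that in GENCODE release 29, 353690 bases, which starts the gene 120791 bases after start 1. For ANO1 the table, at 111244 bases, is close to GENCODE, at 111227, and not to RefSeq, at 223534, and the transcript start of its one RefSeq promoter lies 92395 bases before the GENCODE start on the same build, so it is not shown.

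ANO8 and ANO10, which act at the endoplasmic reticulum, shared a pattern in which A375P alone was low. ANO8, reported to tether the endoplasmic reticulum to the plasma membrane, lies on the minus strand of chromosome 19 (17434032 to 17445638). Its reads numbered 391 in A375P and 1082 in A375R, then 1223 with DMSO and 1433 with VEM, or a TPM of 11.0, 33.7, 36.8 and 43.5. Its level in A375R was 3.06 times that in A375P (95% interval 2.73 to 3.45), but A375+DMSO was higher than A375P by as much, at 3.35 times (95% interval 2.99 to 3.77). Against A375+DMSO, A375R was at 0.914 (95% interval 0.841 to 0.993), and A375+VEM at 1.18 (95% interval 1.09 to 1.27). ANO10, mutated in a recessive ataxia, lies on the minus strand of chromosome 3 (43407818 to 43733086). Its reads numbered 340 in A375P and 650 in A375R, then 604 with DMSO and 622 with VEM, or a TPM of 12.4, 26.3, 23.6 and 24.5. Its ratio to A375P was 2.12 in A375R (95% interval 1.85 to 2.42), 1.90 in A375+DMSO (95% interval 1.66 to 2.18) and 1.97 in A375+VEM (95% interval 1.73 to 2.26). With A375+DMSO as the control the ratio was 1.11 in A375R (95% interval 0.994 to 1.24) and 1.04 in A375+VEM (95% interval 0.926 to 1.16). So for both genes the call in A375R rested on which library without vemurafenib served as the control. Untreated culture, solvent and handling cannot be told apart with 1 library each.

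ANO4, ANO5 and ANO7 were low throughout. ANO4, a member expressed mainly in brain, lies on the plus strand of chromosome 12 (101188374 to 101522419) and had 4 reads in A375P and 15 in A375R, then 37 with DMSO and 7 with VEM. The peak was thus in A375+DMSO, and the ratio of A375+VEM to it was 0.191 (95% interval 0.0717 to 0.433), while that of A375+DMSO to A375P was 9.91 (95% interval 3.56 to 38.3). ANO5, whose loss causes a limb-girdle muscular dystrophy, lies on the plus strand of chromosome 11 (22214722 to 22304913) and had 31 reads in A375P and 50 in A375R, then 66 with DMSO and 51 with VEM. It was lowest in A375P, with A375+DMSO at 2.28 times that level (95% interval 1.47 to 3.62). ANO7, best known from the prostate, lies on the plus strand of chromosome 2 (242127924 to 242164791) and had 46, 52, 39 and 31 reads in the same order of libraries. No interval of ANO7 left out 1 in any of the 5 comparisons of libraries.

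In the pair of the resistant strain and its parental cells, 6 members had a TPM of at least 1, and 3 of them were called higher (ANO1, ANO8 and ANO10) and none lower. Of all 1689 genes compared 44.3% were called, 26.8% as higher and 17.5% as lower. The median log2 ratio of the 6 was 0.44, beside 0.10 for all genes compared. In the acute pair 9 members were compared, of which 2 were called higher (ANO3 and ANO9) and 2 lower (ANO1 and ANO4), where 46.2% of all 1784 genes were called, 26.5% as higher and 19.7% as lower. The median of the 9 was -0.23, beside 0.11 for all genes. ANO4, ANO5 and ANO7 were in that set through A375+DMSO alone, and ANO9 through A375+VEM alone, so this median rests in part on the filter. Over all 10 members it was -0.09. ANO1 was called in both pairs, higher in A375R and lower in A375+VEM. With no filter on low values ANO4 and ANO9 were also past 1.5-fold in both, ANO4 in the directions of ANO1 and ANO9 in the opposite ones. In A375R and A375P that rests on 15 and 4 reads for ANO4 and on 3 and 10 for ANO9. The interval of ANO9 there, 0.0587 to 1.29, includes 1. The share of all genes past 1.5-fold in both pairs is not given here. Between A375+DMSO and A375P, neither with the drug, 5 of 8 members were called, 4 higher (ANO4, ANO5, ANO8 and ANO10) and ANO1 lower, where 45.7% of 1720 genes were called, 26.8% as higher and 18.9% as lower. ANO4 and ANO5 passed the filter there through A375+DMSO alone, as did ANO9 in the acute pair through A375+VEM and ANO4 through A375+DMSO. Between A375R and A375+DMSO 2 of 8 were called, ANO1 as higher and ANO4 as lower, where 20.5% of 1702 genes were called, 10.5% as higher and 9.99% as lower. Between A375+VEM and A375P 5 of 7 were called, ANO3, ANO8, ANO9 and ANO10 as higher and ANO1 as lower, where 62.1% of 1782 genes were called, 36.9% as higher and 25.3% as lower. Of the members called, ANO9 passed the filter against A375P through A375+VEM alone. In A375R against A375+DMSO, ANO4 passed it through A375+DMSO alone. Comparisons that share a library are not independent of each other, and none of these shares was tested against its background.

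**Figure D3:**
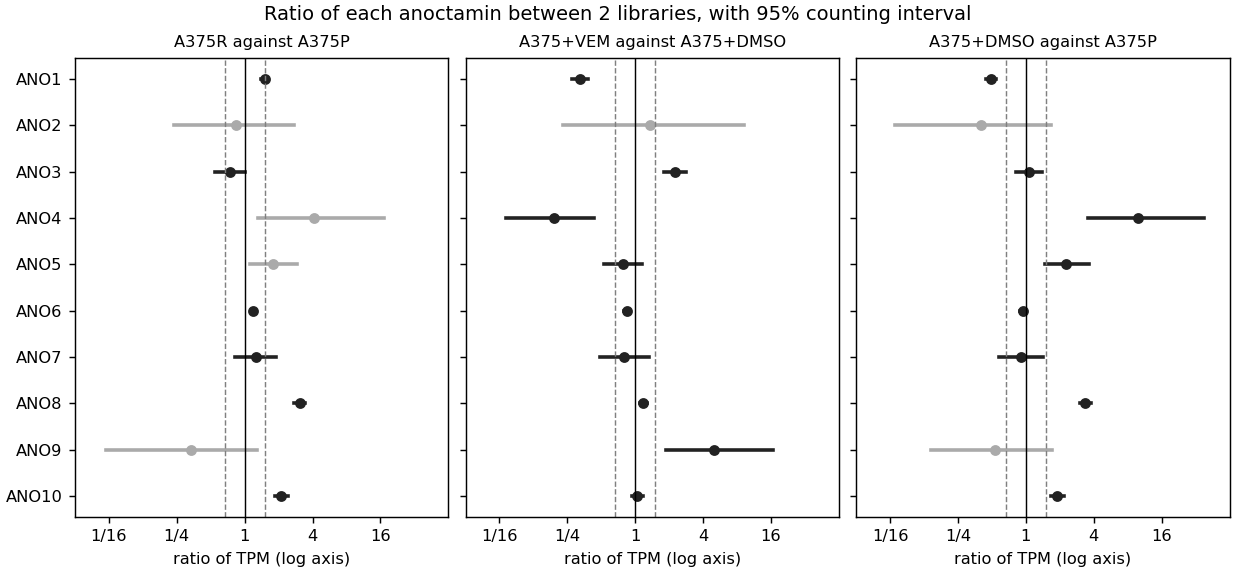
Ratio of TPM (log axis) of each anoctamin in A375R against A375P, A375+VEM against A375+DMSO and A375+DMSO against A375P, with exact 95% counting intervals as bars and dashed lines at 1.5-fold in each direction. Grey members had a TPM under 1 in both libraries of the pair. ANO8 and ANO10 lie to the right in the outer panels and near 1 in the middle, and ANO1 lies at 1.505, 0.322 and 0.493.

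**Figure D4:**
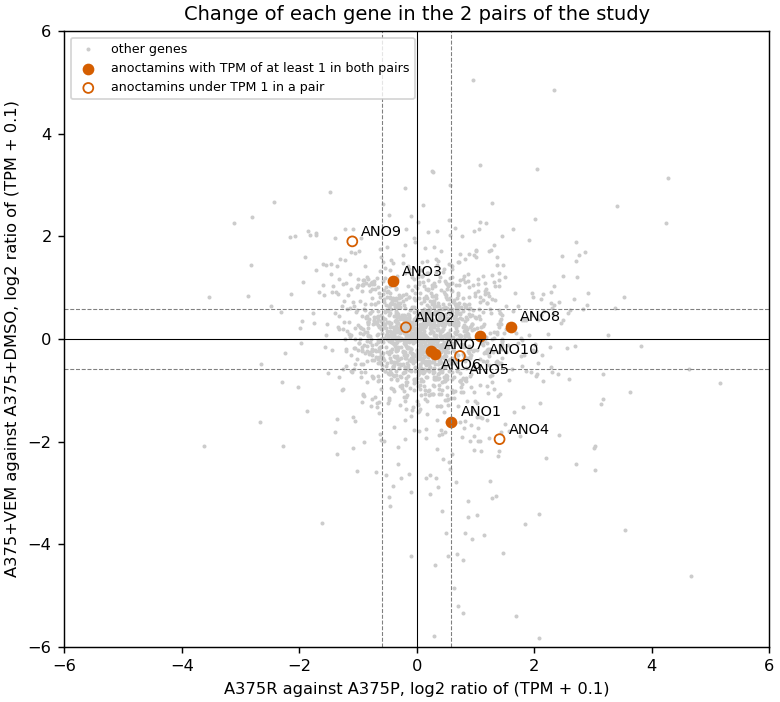
Log2 ratio of (TPM + 0.1) in A375R against A375P (x) and in A375+VEM against A375+DMSO (y) for 1650 other genes (grey) and the anoctamins, with filled circles for 6 members at a TPM of at least 1 in both pairs, open circles for the other 4, and dashed lines at 1.5-fold. Axes stop at 6 in each direction, and 1 other gene lies beyond them. ANO1 and ANO4 are at the lower right, ANO3 above the centre, ANO9 at the upper left, and ANO8 and ANO10 to the right near 0.

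By the distance between profiles over the 4 libraries, each gene on log2(TPM + 0.1) about its own mean, the coding genes outside the family most like ANO1 among 1561 were AOX1 and AMIGO2, at root mean square distances of 0.240 and 0.283. AMIGO2 had a TPM of 75.0 in A375P, 102 in A375R, 52.7 with DMSO and 10.4 with VEM. Nearest to ANO8 were C8orf82 at 0.060 and ABCG4 at 0.086, to ANO10 ACTL10 at 0.054 and ACSS2 at 0.060, and to ANO3 AS3MT at 0.048 and C6orf89 at 0.080. ARL1 at 0.018 and AP4B1 at 0.027 were nearest to ANO6, and BTG1 at 0.053 and ATXN10 at 0.055 to ANO7. Among these 6 members ANO1 had the most distant nearest gene, and ANO2, ANO4, ANO5 and ANO9 were not ranked. With 4 points a profile, likeness is a description of these libraries.

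Lipids are moved against the action of scramblases by P4-ATPase flippases, which return phosphatidylserine and other lipids to the inner leaflet. All 14 flippase genes of the list are in the table, and 12 reached a TPM of 1 in each comparison. In A375R against A375P 7 were higher and none lower, with a median log2 ratio of 0.67, beside 26.8% higher, 17.5% lower and a median of 0.10 over all genes compared. ATP8B3, ATP8A1 and ATP8A2 led, at 3.17, 2.15 and 1.56. These genes and ATP10B were under a TPM of 1 in A375P, at 0.0833, 0.517, 0.794 and 0.941. They passed the filter through A375R alone, so the count and the median rest in part on the filter. As with ANO8 and ANO10, A375+DMSO was also above A375P, with 7 higher and none lower (26.8% and 18.9% of all genes). ATP8B3, ATP8A1, ATP8A2 and ATP10B passed the filter there through A375+DMSO alone, and through A375+VEM alone in its comparison with A375P. Against A375+DMSO none was higher and 1 lower in A375R (10.5% and 9.99% of all genes). The lower one was ATP10A, at a TPM of 0.962 beside 2.60, which passed the filter through A375+DMSO alone. In A375+VEM against A375+DMSO 3 were higher and 5 lower, beside 26.5% and 19.7% of all genes, but against A375P 7 were higher and 1 lower, beside 36.9% and 25.3%. The highest were ATP10B at a log2 ratio of 1.11, ATP10D at 0.89 and ATP8A1 at 0.87, and the lowest ATP9A at -1.02 and ATP10A at -0.98, which were at -0.35 and -0.04 against A375P and not called. ATP11A, a flippase of the plasma membrane, had a TPM of 34.4, 28.1, 27.9 and 17.0 in A375P, A375R, A375+DMSO and A375+VEM. The bestrophins are calcium-activated chloride channels of another family. BEST1 was at a TPM of 5.86 in A375P, 8.58 in A375R, 10.7 with DMSO and 6.92 with VEM, and BEST2, BEST3 and BEST4 stayed at or under 0.481. BEST1 was lower with VEM than with DMSO, at a log2 ratio of -0.62, and at 0.24 against A375P, which was not called.

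The defining pigment cell genes MITF, SOX10 and PMEL lie beyond the end of this copy of the table and were not analysed here. Of 6 melanocytic genes in it, ASAH1 was the most abundant in A375P at a TPM of 32.4, and BIRC7 had 3, 1, 9 and 18 reads. Their TPM summed to 64.4 in A375P, 89.5 in A375R, 60.1 with DMSO and 105 with VEM, and 6 of 6 were called higher with VEM than with DMSO, beside 26.5% of all genes compared. The interval of BIRC7 there, 0.859 to 5.09, includes 1. BIRC7 passed the filter through A375+VEM alone, at a TPM of 1.66 beside 0.823 with DMSO and 0.256 in A375P. Against A375P 4 of 6 were called higher, beside 36.9% of all genes, and ASAH1 and BCL2A1 were at log2 ratios of 0.02 and 0.09. In A375R against A375P 2 of 5 were higher and 2 lower, beside 26.8% and 17.5% of all genes, with BCL2A1 at a TPM of 37.5 against 7.67 and APOE at 21.4 against 11.3 as the higher ones, and ASAH1 at 15.9 against 32.4 and CA14 at 0.568 against 1.92 as the lower. Their part in the anoctamin values was not tested. Of 4 fibroblast and smooth muscle genes the most abundant was ACTA2, at a TPM of 92.2 in A375P and 35.0, 28.3 and 40.1 in A375R, A375+DMSO and A375+VEM. ADH1B was at 2.07, 1.84, 1.42 and 1.12 in the same order and was not called in A375R against A375P, while ACTG2 and ASPN had at most 9 reads. The 7 blood cell genes summed to a TPM of at most 1.23 in any library, and C1QA was at 0 in all.

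Neither the labels nor the paper state whether counting used the strand, so reads of overlapping genes cannot be told apart from those of a member. In the table, ABHD5 overlaps ANO10 on the other strand, with 908 reads in A375P and 539 in A375R, then 277 with DMSO and 267 with VEM, an order unlike that of ANO10. In RefSeq on GRCh38.p14, the coding gene DDA1 overlaps ANO8, HDLBP overlaps ANO7, and MUC15 lies within the span of ANO3. Several lncRNAs and pseudogenes overlap members there too, such as LINC02753 and LINC02584 with ANO1 and ANO3-AS1 with ANO3. These genes were not analysed here.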

How the data were processed

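RNA of 4 conditions of A375 cells was sequenced, with 1 library each. The submitters' processing notes name HISAT2, HISAT, TopHat2, Bowtie2 and hg19 without roles, and the counting program is not given in the sources used here. The deposited counts are whole reads per gene, without normalization. The deposited TPM are reads per base of gene, brought to the same total in each library by the authors, and the 2864 genes of the table carry 8.48% to 8.94% of it. An incomplete row of the table was left out.

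Ratios, intervals and calls were computed with Python 3.11.15, numpy 2.4.6, scipy 1.17.1 and pandas 2.3.3, and figures with matplotlib 3.10.9, over all genes. The TMM factors came from edgeR 4.0.16 in R 4.3.3. The ratio step was tested on simulated data. With 1 library per condition no test was run. Tried as alternatives were pseudocounts of 1 and 0.01, no filter, a filter at a TPM of 5, median scaling, TMM, 2-fold, and the other control. Named were all members, antisense and overlapping genes, list genes (all of lists of up to 4 genes, otherwise the 3 largest called in each direction and pair, of which 1 is not reported here) and the 2 nearest profiles. The members and lists were chosen with earlier results of these data known.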

Additional observations from a re-analysis of the deposited data

Results flagged for a closer look

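ANO1, ANO4 and ANO6 had log2 ratios of opposite sign in the 2 pairs of the study, each with an interval that leaves out 1. The intervals cover counting error only. That difference was not tested, and the share of all genes that meet the same rule is not given here. Only ANO1 was called in both pairs. ANO4 was called in the acute pair alone, being under a TPM of 1 in A375R and A375P, and ANO6 was called in neither. The log2 ratio of ANO1 was 0.59 for the resistant strain against its parental cells but -1.61 for the acute treatment against the solvent. With the other drug-free library as the control it was at 1.60 in A375R and -2.63 in A375+VEM, so the directions were the same. ANO4 was at 1.41 and -1.95 in the 2 pairs, from 4 and 15 reads in the first and 37 and 7 in the second, and at -1.10 and 0.55 with the other control, so both directions turned. ANO6 was at 0.25 and -0.23, and at 0.34 and -0.32 with the other control, all of them within 1.5-fold.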

How the results depend on the processing

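No paired analysis was possible because each condition has 1 library. With no filter, so that every gene is compared, 702 genes were higher and 535 lower in the resistant pair, 746 and 536 in the acute pair, and 735 and 531 between the drug-free libraries. In the resistant pair 6 of 10 anoctamins passed, beside 24.5% of all genes higher and 18.7% lower, where ANO4, ANO5 and ANO9 joined with 3 to 50 reads. In the acute pair 4 of 10 passed, beside 26.0% and 18.7%. Between the drug-free libraries 7 of 10 passed, beside 25.7% and 18.5%, where ANO2 and ANO9 joined with 3 to 10 reads. A threshold of 2-fold left 248 and 127, 273 and 198, and 286 and 161, and A375+DMSO as the control of A375R left 179 and 170. At a TPM of at least 5, 2 of 5 anoctamins were called in A375+VEM (ANO1 and ANO3), beside 23.4% of all genes higher and 19.0% lower, and 3 of 4 in A375+DMSO against A375P, beside 23.2% and 18.4%. With the other control the called values of ANO8 in A375R and of ANO4 in A375+VEM turned, to -0.13 and 0.55. Values that had not been called turned too, ANO4 from 1.41 to -1.10, ANO5 from 0.73 to -0.32 and ANO2 from -0.19 to 0.61 in A375R, and ANO5 from -0.33 to 0.73 and ANO2 from 0.23 to -0.57 in A375+VEM. Median scaling moved the log2 ratios by -0.10 in A375R and -0.11 in A375+VEM, and TMM by -0.07 and -0.15. ANO1 in A375R against A375P was not called under either, nor with a pseudocount of 1 or at 2-fold. In A375+DMSO against A375P the call of ANO5 was lost with a pseudocount of 1 and that of ANO10 at 2-fold. Under TMM 380 genes were higher and 428 lower in A375+VEM against A375+DMSO, instead of 473 and 352. There ANO9 no longer passed the filter and was not called, though its log2 ratio was 1.77, beside 1.90 in the main setting. Of 140 single values under alternatives, 119 stayed within their counting interval, which is wide for members with few reads. Even the turn of ANO2 from -0.19 to 0.61 lay within it. Of the 140, 10 had another sign, 7 of them with the other control and 3 near 0 under rescaling (ANO10 in A375+VEM and ANO3 in A375+DMSO). The causes were not tested. Depth limits ANO2, ANO4 and ANO9, at most 37 reads each.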

Other observations

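Lipid exporters of the ABC family, which move lipids outward or load them onto lipoproteins, were all 6 at a TPM of at least 1. In A375R against A375P 4 were higher and none lower, beside 26.8% and 17.5% of all genes compared, led by ABCB4 at a log2 ratio of 2.87, ABCG1 at 2.42 and ABCA7 at 0.77. Against A375+DMSO these were at -0.37, 0.46 and 0.03 and not called, and ABCA1 at 1.37 was the 1 gene called higher, beside 10.5% of all genes. In A375+VEM against A375+DMSO ABCA7 at 2.01, ABCB4 at 1.71 and ABCA1 at 0.74 were higher and ABCG1 at -1.88 was lower, beside 26.5% and 19.7% of all genes. Against A375P ABCA7 and ABCB4 were higher at 2.75 and 4.94, while ABCA1 at -0.40 and ABCG1 at 0.08 were not called. ABCB4 had 35 reads in A375P and 250 in A375R, then 334 with DMSO and 1089 with VEM, so A375P was again the lowest library. ATG9A, a lipid scramblase of autophagy, had a TPM of 55.6, 55.1, 49.9 and 67.1 in the same order and passed 1.5-fold in neither pair, and ATG9B had at most 19 reads.

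Annexins bind phosphatidylserine in a calcium-dependent way. Of 12 such genes 8 reached a TPM of 1. In A375R against A375P ANXA6 at a log2 ratio of 2.30, ANXA9 at 1.00 and ANXA11 at 0.87 were higher and ANXA5 at -0.91 was lower, beside 26.8% and 17.5% of all genes. Against A375+DMSO none of these 4 was called, at 0.31, -0.06, -0.20 and 0.25, and ANXA1 was the 1 annexin called, lower at -0.73, beside 9.99% of all genes. With VEM against DMSO ANXA9 at 1.73, ANXA2 at 1.06 and ANXA4 at 0.97 were higher and ANXA1 at -1.61 and ANXA6 at -0.64 were lower, beside 26.5% and 19.7% of all genes. Against A375P ANXA9, ANXA2 and ANXA4 were higher at 2.79, 0.77 and 0.66, but ANXA6 was higher too, at 1.34, and ANXA1 at -0.35 was not called. ANXA5, used in the laboratory to detect exposed phosphatidylserine, had a TPM of 932 in A375P, 495 in A375R, 415 with DMSO and 473 with VEM. AXL, a receptor kinase that recognizes phosphatidylserine through a bridging protein, was at 659, 575, 358 and 92.4 in the same order, with a log2 ratio of -1.95 in A375+VEM against A375+DMSO and -2.83 against A375P. ADGRB1, another phosphatidylserine receptor, had at most 9 reads.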
